A study of Caenorhabditis elegans with 8 samples.

Results

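The response of the Caenorhabditis elegans strain TU3401 to RNAi against ash-2 was described from 1 array labelled ash-2 and 1 control array of that strain. The members are the protein-coding features with exactly 1 gene symbol and a mean intensity above 32 over the 8 arrays of the series, which left 7732 of 27792 features and covered 7724 genes. The feature just inside this limit, of pat-2, had a mean intensity of 32.01 and the one just outside, of F56B3.6, 31.99. The labels assign neuronal RNAi to TU3401, intestinal RNAi to VP303, muscle RNAi to NR350 and RNAi in all tissues to the wild-type strain N2. In each strain, worms labelled ash-2 RNAi and worms labelled control RNAi were fed for 3 days from the egg to young adulthood, and 1 array was hybridised per group, so that there are 4 pairs of arrays. All strains were kept at 20 °C, and RNA came from whole worms, so that fewer cells of a type and less RNA per cell cannot be told apart. As background on the strain, TU3401 lacks the endogenous function of sid-1, the gene of the channel that lets double-stranded RNA into cells, and carries a sid-1 transgene driven by the promoter of the neuronal gene unc-119. VP303 and NR350 instead lack rde-1, a gene needed for RNAi inside the cell, and carry it again in intestine or muscle. No label names separate cultures.

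ASH-2 is a subunit of the complexes that methylate lysine 4 of histone H3, a mark of active promoters. Neurons signal with small transmitters stored in synaptic vesicles and with peptides stored in dense-core vesicles. Neuropeptide and insulin-like genes encode short precursors. Those of neuropeptides are cut by the protease EGL-3 with its helper SBT-1 and trimmed by the carboxypeptidase EGL-21, and PGHM-1 helps to amidate them.

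The target gene went against the label. The intensity of ash-2 was 198 on the TU3401 array labelled ash-2 and 122 on the control array, a log2 difference of 0.69 in the direction opposite to a knockdown, and the array is therefore called the array labelled ash-2 throughout. The other 6 arrays ran from 146 to 269, so the control array lay below all of them, and the difference was above 0 in the other strains too (0.29 in N2, 0.65 in VP303 and 0.89 in NR350). Every direction given here rests on that label. The intensity of sid-1 was 642 and 661 on the same arrays against 118 to 200 on the 6 arrays of the other strains. The neuronal gene unc-119 had 90.8 and 92.4. Of 12 neuron markers, 6 had a mean above 32, with a summed intensity of all 12 of 2747 on the array labelled ash-2 and 3026 on the control array, against 2669 to 3192 on the other 6. None of the 6 sperm markers or 2 glial markers with a feature had a mean above 32, while all 6 germ line markers, 6 oocyte markers and 8 intestine markers did.

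With 1 array per group there is no replicate check of the TU3401 difference, and no p-value is given for it. Fold changes are ratios of deposited intensities, whose lowest value of 18.01 acts as a floor, so that differences of dim genes are understated. Over all members the median log2 difference was 0.04 with an SD across genes of 0.279, and 55.9% were above 0. At least 2-fold higher in the array labelled ash-2 were 9 members (0.116%), and at least 2-fold lower were 11 (0.142%). At 1.5-fold, 219 were higher (2.83%) and 121 lower (1.56%). Under quantile normalization the counts were 6 and 13 at 2-fold, and 155 and 148 at 1.5-fold, so the excess of higher genes at 1.5-fold depends on the scaling.

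**Figure D1:**
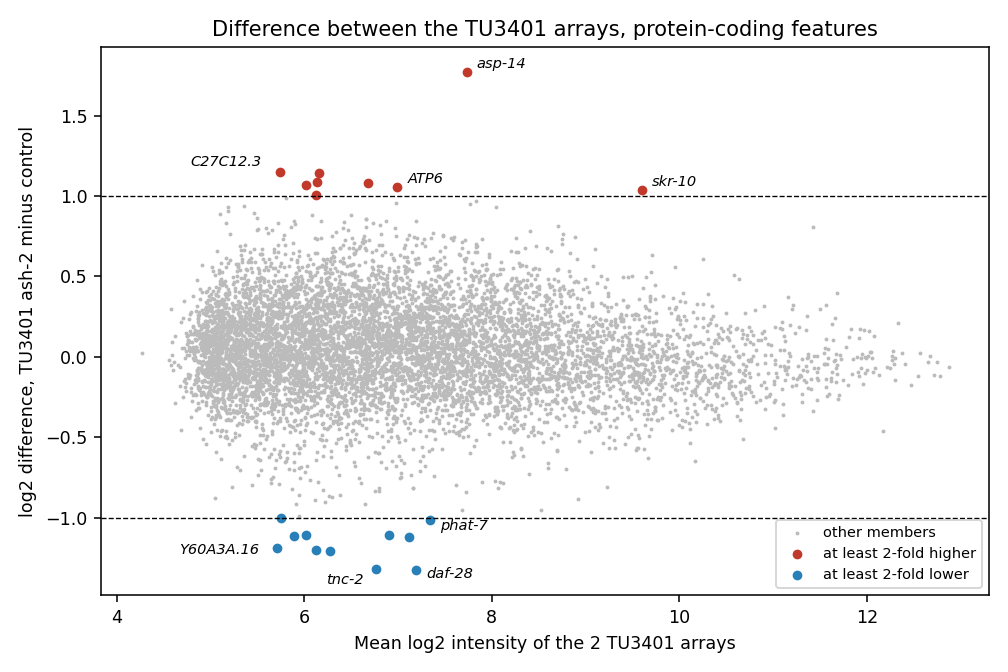
Log2 difference between the TU3401 array labelled ash-2 and the TU3401 control array (vertical) against the mean log2 intensity of both arrays (horizontal) for the 7732 members. Each point is 1 feature, dashed lines mark 2-fold, 9 features lie at or above the upper line and 11 at or below the lower one, and asp-14 stands apart at 1.77.

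To ask whether TU3401 differed from the other strains, its difference was set against the mean difference of N2, VP303 and NR350 in limma, with strain as a block. This fit has 2 residual degrees of freedom and assumes that the TU3401 response varies like the other 3. Of the members, 0 passed at an adjusted p under 0.05 (0.0%), with a smallest adjusted p of 0.174 in limma, while an unadjusted p under 0.05 was reached by 216 on the higher side (2.79%) and 224 on the lower side (2.9%). Over all 27792 features, limma's adjusted threshold was passed by 0 on the higher side (0.0%) and by 1 on the lower side (0.0036%), hlh-27, which was too dim to be a member. Without adjustment the counts were 1099 (3.95%) and 1336 (4.81%). The limma differences of members given here are therefore sizes with errors, none of which passed the adjusted threshold over all strains.

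Insulin-like and neuropeptide genes stood low. The lowest member was daf-28, an insulin-like peptide gene expressed in sensory neurons whose product opposes entry into the dauer stage. Its intensity was 92.4 on the array labelled ash-2 and 232 on the control array, a log2 difference of -1.33 or 2.51-fold lower, against 0.22 in N2, 0.33 in VP303 and -0.43 in NR350. The 6 arrays of the other strains spanned 63.5 to 277, so both TU3401 values lie inside their range. The TU3401 difference minus the mean of the other strains was -1.37 (SE 0.317, limma adjusted p = 0.279). Leaving out a strain, with 1 residual degree of freedom left, gave -1.61 without NR350, the one other strain with a difference below 0 (limma adjusted p = 0.0416), -1.28 without N2 (adjusted p = 0.149) and -1.23 without VP303 (adjusted p = 0.423).

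The insulin-like gene ins-30 had 45.8 on the array labelled ash-2 and 106 on the control array, a log2 difference of -1.20, and ins-24 had 43.4 and 86.4 (-0.99). For both genes the array labelled ash-2 was below all 6 arrays of the other strains, whose lowest values were 59.0 and 46.8. Of 39 insulin-like genes with a feature, 11 were members. Of these, 4 were at least 1.5-fold lower, against 1.56% of all members. The 1 at least 1.5-fold higher, against 2.83% of all members, was ins-34 (50.6 and 31.4, log2 difference 0.69). The median log2 difference of the 11 was -0.34 in TU3401, against 0.11 in N2, 0.29 in VP303 and -0.13 in NR350. Over all 39, most of which lay below the intensity limit, the median was -0.03.

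The FMRFamide-like neuropeptide genes, named flp, were lower almost throughout. Of 31 flp genes with a feature, 22 were members, and 19 of these were below 0, against 44.1% of all members. At least 1.5-fold lower were 7 of the 22, against 1.56% of all members, and at least 1.5-fold higher were 0, against 2.83%. Their median log2 difference was -0.41 in TU3401, against 0.10 in N2, 0.18 in VP303 and -0.16 in NR350. The lowest was flp-1, with an intensity of 83.0 on the array labelled ash-2 and 148 on the control array (log2 difference -0.84), followed by flp-16 with 109 and 182 (-0.74). At the other end, flp-22 had 53.7 and 46.6 (0.20) and flp-10 had 175 and 174 (0.00). In 13 of the 22 the TU3401 difference lay below those of all 3 other strains, which held for 23.9% of all members, and 8 of the 22 were lower at an unadjusted p under 0.05 in limma, against 2.9% of all members.

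The second neuropeptide family, named nlp, with pdf-1, snet-1 and ntc-1, gave 32 members of 81 genes with a feature. Of the 32, 24 were below 0, against 44.1% of all members. At least 1.5-fold lower were 9, against 1.56% of all members, and at least 1.5-fold higher were 0, against 2.83%. The median of the 32 was -0.27 in TU3401, against 0.13 in N2, 0.19 in VP303 and -0.13 in NR350. The lowest was nlp-9, with 72.8 on the array labelled ash-2 and 137 on the control array (log2 difference -0.92), and then nlp-14 with 54.5 and 102 (-0.91). The highest were nlp-34, an antimicrobial peptide gene of the epidermis (38.6 and 28.6, log2 difference 0.43), and nlp-59 (37.5 and 30.2, 0.31). In 20 of the 32 the TU3401 difference lay below those of the other 3 strains, against 23.9% of all members. In limma, 12 were lower at an unadjusted p under 0.05, against 2.9% of all members. Over all 81, most of which are dim, the median was -0.03.

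**Figure D2:**
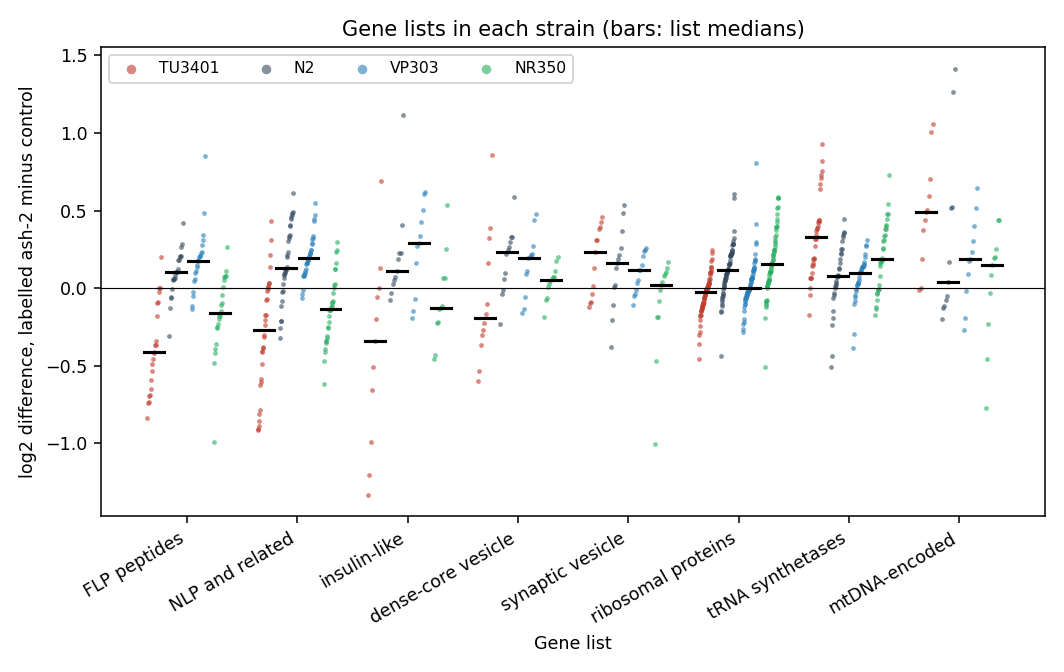
Log2 difference between the array labelled ash-2 and the control array (vertical) for the members of 8 gene lists (horizontal) in TU3401, N2, VP303 and NR350, 1 pair of arrays per strain. Points are genes and black bars list medians; in the FLP list the TU3401 median is -0.41, against 0.10, 0.18 and -0.16 in the other strains, and in the mitochondrially encoded list it is 0.49.

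Genes that process or load these peptides lay on both sides of 0. Of 16 genes for dense-core vesicles with a feature, 12 were members, and 8 of these were below 0, against 44.1% of all members. At least 1.5-fold lower was 1, against 1.56% of all members, and at least 1.5-fold higher was 1, against 2.83%. The median log2 difference of the 12 was -0.19 in TU3401, against 0.24 in N2, 0.20 in VP303 and 0.05 in NR350. Over all 16 the TU3401 median was -0.09. The amidation gene pghm-1 had 49.9 on the array labelled ash-2 and 75.5 on the control array (log2 difference -0.60), and sbt-1, the helper of EGL-3, had 79.5 and 115 (-0.53). At the other end, pkc-1, a protein kinase C gene that promotes peptide release, had 136 and 75.04 (0.86), and the proprotein convertase gene bli-4 had 143 and 109 (0.39). In 9 of the 12 the array labelled ash-2 was below all 6 arrays of the other strains, which held for 18.6% of members, and in 6 of the 12 the control array was, against 29.2% of members.

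Of 33 genes of synaptic vesicle release with a feature, 13 were members, of which 9 were above 0, against 55.9% of all members, and 0 were past 1.5-fold in either direction. Their median log2 difference was 0.23 in TU3401, against 0.16 in N2, 0.11 in VP303 and 0.02 in NR350, and over all 33 it was 0.02 in TU3401. The lowest was the synaptobrevin gene snb-1 (2015 and 2196, log2 difference -0.12), and the highest egl-30, a G protein alpha subunit gene (294 and 214, 0.46). The 6 neuron markers among the members had a median of -0.11, and the 4 members for transmitter synthesis and transport one of -0.12, from ace-2, an acetylcholinesterase gene (-0.25), to bas-1, an aromatic amino acid decarboxylase gene (0.16). Of 124 neurotransmitter receptor genes with a feature, 4 were members.

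The array on which these values depart from the rest of the series can be read from the levels. The median log2 intensity of the 22 flp members was 5.55 on the TU3401 array labelled ash-2 and 5.97 on the TU3401 control array, against 5.90 to 6.35 on the 6 arrays of the other strains. In 17 of the 22 the array labelled ash-2 was below all 6, against 18.6% of all members. In 3 of the 22 the control array was, against 29.2% of all members. For the 32 nlp members the medians were 5.97 and 6.44, against 6.22 to 6.72. The array labelled ash-2 was below all 6 in 20 of them (18.6% of all members) and the control array in 8 (29.2% of all members). Both list medians on the array labelled ash-2 lay below those of the other 7 arrays, while those on the control array lay within the range of the other strains.

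The second-lowest member was the troponin C gene tnc-2. This gene, which acts in pharyngeal muscle, had 68.8 on the array labelled ash-2 and 172 on the control array, a log2 difference of -1.32 or 2.50-fold lower, against -0.01 in N2, 0.49 in VP303 and 0.15 in NR350. The 6 arrays of the other strains ran from 76.0 to 168, so the array labelled ash-2 was below and the control array above all of them. Its difference from the other strains was -1.53 (SE 0.266, limma adjusted p = 0.174, shared with T02H6.7 as the smallest among the members). With 1 residual degree of freedom, it was -1.64 without N2 (limma adjusted p = 0.0300), -1.56 without NR350 (adjusted p = 0.0769) and -1.39 without VP303 (adjusted p = 0.291). The pharyngeal myosin gene myo-2 had 50.3 and 74.6 (-0.57), and phat-7, of a family named after the pharyngeal gland, had 114 and 230 (-1.01).

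The 4 pharyngeal muscle markers among the members were below 0, against 44.1% of all members, and only tnc-2 was past 1.5-fold. The other two were pha-4 (54.9 and 59.9, log2 difference -0.13) and myo-1 (43.4 and 46.6, -0.10). The summed intensity of all 6 was 262 on the array labelled ash-2 and 406 on the control array, against 304 to 481 on the other 6 arrays. Without tnc-2, a step chosen after seeing the data, the sum was 193 and 235, against 224 to 324. For body wall muscle markers the summed intensity was 3938 and 3926. The 6 members among them ran from lev-11 (-0.07) to myo-3, a body wall myosin gene (0.47). Their median log2 difference was 0.08 in TU3401, against 0.32 in N2, 0.14 in VP303 and 0.27 in NR350. In 4 of these 6 the TU3401 difference lay below those of all 3 other strains, and in 3 of the 4 pharyngeal members, against 23.9% of all members. Among 10 troponin and tropomyosin members, 8 were below 0, against 44.1% of all members, and tnc-2 alone was past 1.5-fold. The pharyngeal troponin I gene tni-4 (174 and 246, -0.50) was next, close to pat-10, a troponin C gene of body wall muscle (-0.49). The part of pharynx content in the lower genes was not tested.

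Among the remaining genes at least 2-fold lower, scl-3, of a family of secreted cysteine-rich proteins, had 50.9 on the array labelled ash-2 and 118 on the control array (log2 difference -1.21), and fipr-2, of a family named after induction by fungi, had 81.3 and 175 (-1.11). The calponin-like gene clik-2 had 94.2 and 204 (-1.12). The others were Y60A3A.16 (34.5 and 78.7, -1.19), T02H6.7 (40.2 and 87.04, -1.12), K09C6.9 (44.1 and 94.9, -1.11) and nssp-64 (38.1 and 76.4). Just short of 2-fold were nssp-77 (147 and 285, log2 difference -0.96), dod-6, found in screens for genes downstream of DAF-16 (265 and 512, -0.95), and the methionine sulfoxide reductase gene msra-1 (43.7 and 82.6, -0.92). For all 11 genes past 2-fold the TU3401 difference lay below that of every other strain, which the choice of the lowest genes in TU3401 favours. Y60A3A.16 was below 0 in every strain, down to -0.83 in NR350. The control array was above all 6 arrays of the other strains in 5 of the 11, against 10.7% of all members. The array labelled ash-2 was below all 6 in 5, against 18.6% of all members, and tnc-2 counts in both. For nssp-64 both TU3401 arrays lay below all 6, whose lowest value was 83.5.

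**Figure D3:**
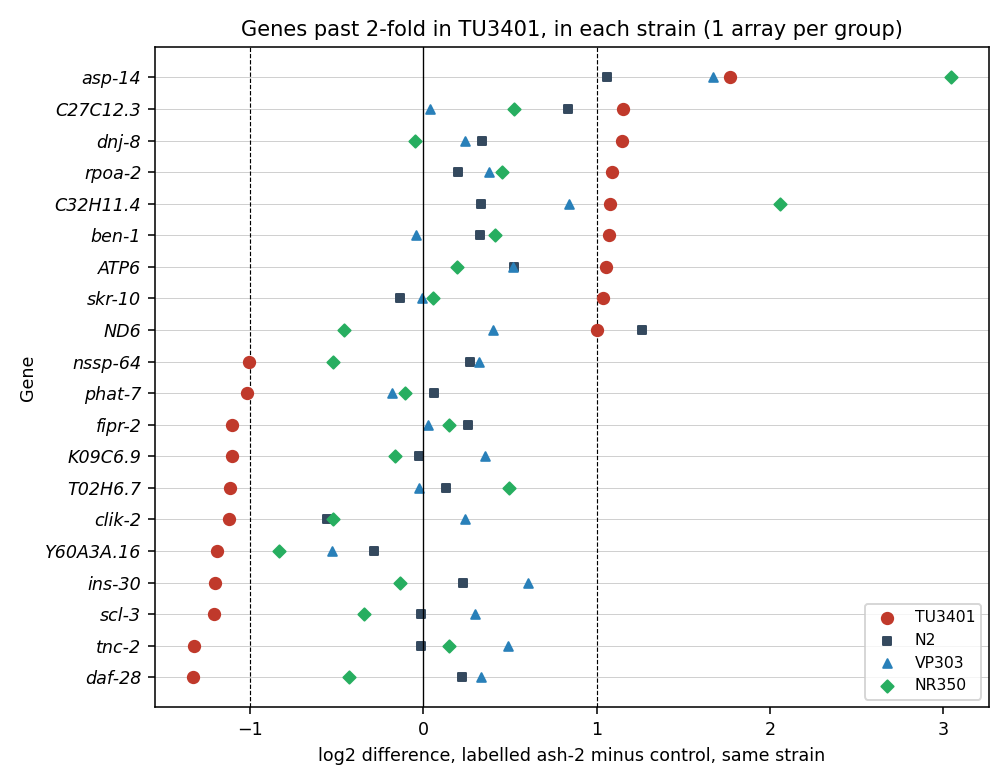
Log2 difference between the array labelled ash-2 and the control array (horizontal) for the 20 genes past 2-fold in TU3401 (vertical), in TU3401 (red circles), N2, VP303 and NR350, with 1 pair of arrays per point. On the lower side the TU3401 points lie left of the other strains, while for asp-14 and C32H11.4 the NR350 points lie furthest right, at 3.05 and 2.06.

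The highest member was asp-14, which encodes an aspartyl protease, with 393 on the array labelled ash-2 and 115 on the control array (log2 difference 1.77, 3.41-fold). The differences were 1.06 in N2, 1.67 in VP303 and 3.05 in NR350, and the limma contrast of TU3401 with them was -0.16 (SE 0.58, adjusted p = 0.968). The other 7 aspartyl protease members were all below 0, against 44.1% of all members, from asp-4 (-0.44) and asp-13 (-0.41) upwards. C32H11.4, from the list of genes induced in immunity, had 149 and 70.4 (1.08), also inside the range of the other strains.

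The ubiquitin ligase subunit gene skr-10, related to Skp1, differed otherwise. Its intensity was 1112 on the array labelled ash-2 and 542 on the control array, a log2 difference of 1.04 or 2.05-fold, against -0.13 in N2, -0.01 in VP303 and 0.06 in NR350. The array labelled ash-2 was above all 6 arrays of the other strains, which ran from 420 to 641, and the control array lay within them. The difference from the other strains was 1.06 (SE 0.22, limma adjusted p = 0.233). Of the 9 genes past 2-fold on this side, only skr-10 and the beta-tubulin gene ben-1 (93.9 and 44.7, 1.07) had the array labelled ash-2 above all 6.

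In 6 of the 9 it was the control array that lay below all 6 arrays of the other strains, which held for 29.2% of all members. These were C27C12.3 (79.6 on the array labelled ash-2 and 35.8 on the control array, log2 difference 1.15), the DnaJ-domain gene dnj-8 (106 and 47.9, 1.14), rpoa-2, a subunit gene of RNA polymerase I (102 and 48.0, 1.09), ben-1, and the mitochondrially encoded ATP6 (182 and 87.8, 1.05) and ND6 (99.0 and 49.3, 1.00). The TU3401 difference lay above those of all 3 other strains in 6 of the 9, which the choice of the highest genes in TU3401 favours. That of ND6 lay within them, with 1.26 in N2, 0.40 in VP303 and -0.46 in NR350. C27C12.3 had 0.84 in N2, 0.04 in VP303 and 0.52 in NR350, and ATP6 had 0.52, 0.52 and 0.20. The rpoa-2 level on the array labelled ash-2 was inside the 76.9 to 114 of the other strains. The same held for egl-8, a phospholipase C beta gene (78.4 and 39.5, log2 difference 0.99), for rbm-12, an RNA-binding gene (176 and 90.5, 0.96), and for C50B6.3 (319 and 163, 0.97), each with the control array below all 6. For gcn-1, a regulator of the kinase GCN-2 (302 and 156, 0.95), both arrays lay within the range. R10E4.11 (56.7 and 29.6, 0.94) lay above on the array labelled ash-2 and below on the control array.

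Mitochondrially encoded genes were higher as a list. Of 12, 11 were members. Of these, 9 were above 0, against 55.9% of all members, and 4 at least 1.5-fold higher, against 2.83%. The median log2 difference was 0.49 in TU3401, against 0.04 in N2, 0.19 in VP303 and 0.15 in NR350. The values ran from -0.01 for ND3 and -0.00 for COX3 to 1.05 for ATP6. The median log2 level of the list was 8.18 on the array labelled ash-2 and 7.54 on the control array, against 8.07 to 8.73 on the other 6 arrays. The control array was below all 6 in 9 of the 11, against 29.2% of all members. Nuclear genes of the respiratory chain did not follow, with a median of -0.03 over 65 members 0 of them at least 1.5-fold higher and 1 lower.

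Aminoacyl-tRNA synthetase genes, whose products charge tRNAs for translation, were higher as well. Of 33 with a feature, 32 were members. At least 1.5-fold higher were 7 of the 32, against 2.83% of all members, and at least 1.5-fold lower were 0, against 1.56%. The median log2 difference was 0.33 in TU3401, against 0.08 in N2, 0.10 in VP303 and 0.19 in NR350. The highest was glp-4, a valyl-tRNA synthetase gene, with 365 on the array labelled ash-2 and 192 on the control array (0.93), then ears-1 for glutamate (148 and 84.0, 0.82). The lowest was the mitochondrial asparaginyl enzyme gene nars-2 (68.7 and 77.5, -0.17). In 18 of the 32 the TU3401 difference lay above those of all 3 other strains, which held for 28.6% of all members. The control array was below all 6 arrays of the other strains in 16, against 29.2% of all members, and the array labelled ash-2 was above all 6 in 8, against 11.3%. Cytosolic ribosomal protein genes had a median of -0.02 with 0 of 61 past 1.5-fold.

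**Figure D4:**
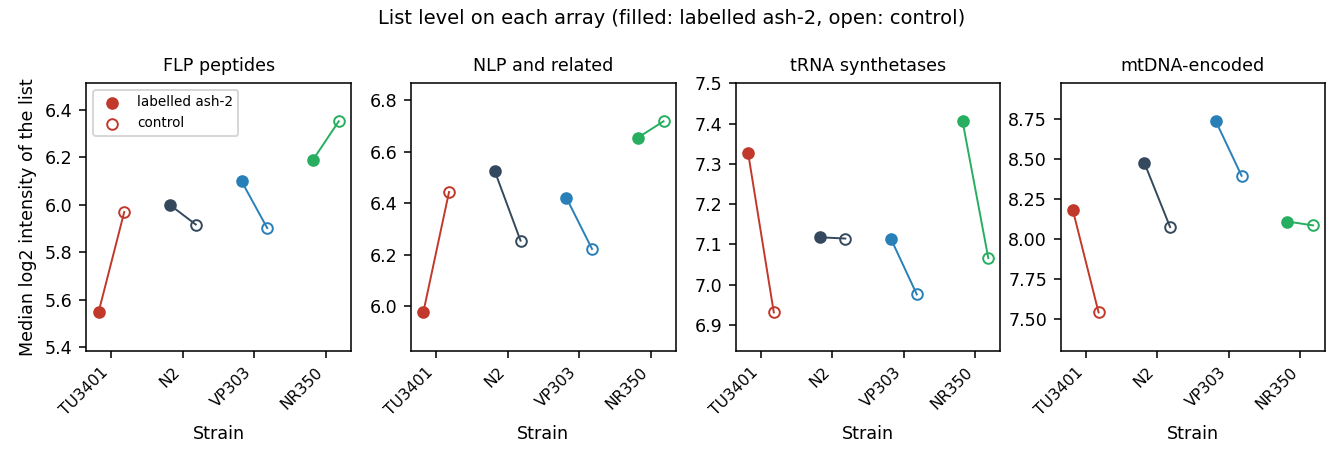
Median log2 intensity (vertical) of the FLP, NLP, tRNA synthetase and mitochondrially encoded lists on each array of TU3401, N2, VP303 and NR350 (horizontal), with the array labelled ash-2 filled and the control array open and 1 array per point. For FLP genes the TU3401 array labelled ash-2 is lowest of the 8, at 5.55, and for mitochondrially encoded genes the TU3401 control array is lowest, at 7.54.

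The TU3401 difference moved with gene length, taken as the annotated span of the gene including introns. In the shortest decile of members, up to 923 bases, the median log2 difference was -0.10, and in the longest decile, from 8993 bases, it was 0.20. Across the 7732 members, which share the same arrays and are not independent, Spearman's rho with length was 0.38 in TU3401, against 0.23 in N2, 0.00 in VP303 and 0.07 in NR350. In the 3 shortest deciles 26 members were at least 1.5-fold higher and 74 lower, and in the 3 longest deciles 133 were higher and 10 lower. Set against the mean of the 6 arrays of the other strains, the array labelled ash-2 had medians between -0.06 and -0.01 in every decile, while the control array ran between 0.07 in the second decile and -0.24 in the longest.

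**Figure D5:**
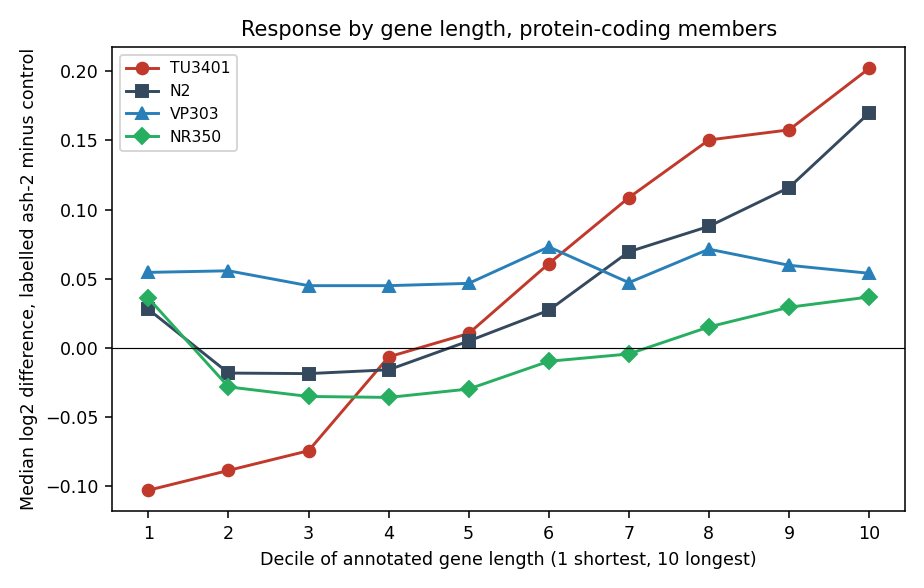
Median log2 difference between the array labelled ash-2 and the control array (vertical) by decile of annotated gene length (horizontal, shortest to longest, 770 to 777 members each) in TU3401, N2, VP303 and NR350. The TU3401 line runs between -0.10 and 0.20 over the deciles and the N2 line between -0.02 and 0.17, with VP303 and NR350 flatter.

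The peptide genes are short, with a median length of 1180.5 bases for the flp and 1065 bases for the nlp members. With the median of their length decile subtracted from each gene, a step chosen after seeing the data, the TU3401 medians were -0.35 for flp, -0.27 for nlp and -0.24 for insulin-like members, and -0.34 for dense-core vesicle members, whose genes are longer, with a median of 5161.5 bases. The tRNA synthetase median was 0.20 after this step, against 0.33 before, and the mitochondrially encoded one, from short genes, 0.57. For synaptic vesicle genes the median was 0.08 after this step, against 0.23 before, and for the 8 aspartyl protease members -0.04, against -0.12 before. Medians of cytosolic ribosomal protein and cuticle collagen genes changed sign, to 0.08 and 0.06, against -0.02 before in both. Of the genes past 2-fold, 9 remained past it on the lower side and 7 on the higher side, all of them among the 11 and 9 named before. The genes that dropped out were phat-7, nssp-64, rpoa-2 and ben-1.

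Genes of the histone H3 lysine 4 machinery stood slightly high. Of 16 with a feature, 14 were members, with a median log2 difference of 0.25 in TU3401, against 0.16 in N2, 0.02 in VP303 and 0.09 in NR350, or 0.14 after the length step. Apart from ash-2, the highest was utx-1, a demethylase gene that acts on lysine 27 of histone H3, with 86.4 on the array labelled ash-2 and 58.6 on the control array (0.56). The lowest were set-17 (422 and 482, -0.19) and dpy-30, a shared subunit of the methyltransferase complexes (458 and 520, -0.18). RNAi machinery genes had a median of 0.14 over 32 members, or 0.02 after the length step, with 0 past 1.5-fold, from sid-5 (-0.25) to the helicase gene drh-1 (0.54).

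Among other lists, the 5 vitellogenin members, genes of yolk proteins, were all above 0, against 55.9% of all members. They ran from vit-5 (0.21) to vit-4 (0.81). Their median was 0.29 in TU3401, or 0.14 after the length step. The median was 0.40 in N2, 0.19 in VP303 and 0.16 in NR350, so that of TU3401 lay within their range. Of 64 cuticle collagen members, 2 were at least 1.5-fold higher, against 2.83% of all members, col-146 (0.89) and col-13 (0.68). At least 1.5-fold lower was 1, against 1.56% of all members, dpy-5 (-0.60). The median of the 64 was -0.02. Antimicrobial peptide genes had a median of -0.29 over 10 members, led by fipr-2 and cnc-8 (108 and 190, log2 difference -0.82), and nlp-33 and nlp-34 are shared with the nlp list. That median was -0.19 after the length step and -0.01 over all 58 with a feature. Germ line regulators had a median of 0.15 over 34 members and DNA replication and division genes one of 0.08 over 31, with 0 past 1.5-fold in either list, and after the length step these were 0.09 and 0.03.

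The genes furthest from the other strains among those outside their range were led by responses of the other strains on the higher side. Y54G2A.10 had the highest difference in limma (1.92, SE 0.58, adjusted p = 0.373), with a log2 difference of -0.28 in TU3401 and -3.22 in N2, -2.22 in VP303 and -1.18 in NR350. The guanine nucleotide exchange factor gene pix-1 followed (1.40, SE 0.55, limma adjusted p = 0.513). Its log2 difference was 0.42 in TU3401 and 0.10 in NR350, against -1.80 in N2 and -1.22 in VP303. The pix-1 intensity was 248 on the N2 control array and 163 on the VP303 control array, against 36.7 in TU3401 and 45.2 in NR350. Next were skr-10, dnj-8, K11H12.6 (0.92) and R05D7.7 (0.87). On the lower side tnc-2 (-1.53) and ins-30 (-1.44) led, followed by ZK669.2 (-1.38), which had -0.76 in TU3401 and 1.24 in VP303, then daf-28, nssp-77 (-1.34) and T02H6.7 (-1.32). Fits that leave out a strain have 1 residual degree of freedom. In them the pix-1 difference was 0.98 without N2, 1.93 without NR350 and 1.27 without VP303. In the same order, that of Y54G2A.10 was 1.42, 2.44 and 1.92 and that of ins-30 -1.44, -1.62 and -1.25. For T02H6.7 the values were -1.35, -1.17 and -1.43.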

How the data were processed

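RNA from whole worms was measured on 8 Affymetrix C. elegans Gene 1.0 ST arrays, 1 per strain and RNAi label. Per the series' design text the arrays were processed with Affymetrix GeneChip Command Console 2.0 and GeneSpring GX 11.0.2. The submitters' processing notes name RMA, which corrects background, equalises arrays and summarises probes. The authors deposited linear, normalized intensities, between 18.01 and 12880. No offset or summarisation level is given in the sources used here.

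Log2 of the intensity was taken with nothing added. Names come from the platform annotation, matched to the RefSeq table of WBcel235, which was used for symbols, biotypes and gene lengths. Of 27792 features, 25546 had 1 symbol (25495 found in RefSeq), 646 several and 1600 none. Where features share a gene, the one with the highest mean is printed. The TU3401 difference is the array labelled ash-2 minus the control array, counted at 2-fold and 1.5-fold, without a test. TU3401 was compared with the mean of the other strains by limma 3.58.1 in R 4.3.3 (lmFit, eBayes with a trend, strain as a block, two-sided, Benjamini-Hochberg over all features). The strain block rests on the labels, which give both arrays of a strain. The fit was also run on simulated data with known changes and independent noise. This checked the size of its estimates and not its error rates in these data.

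The members, the 54 gene lists and the tests were chosen with earlier results of these data known. Of 489 list entries given by name, 8 were not matched. Genes named are the 15 highest and 15 lowest members, every member past 2-fold, the 6 furthest from the other strains per direction outside their range, the 2 highest and 2 lowest of each list, ash-2 and sid-1. The genes pat-2, pat-10 and nlp-33, and the noncoding genes, were named outside this rule. No sequence is printed, since none was used here. Alternatives were other normalizations, filters, scales, thresholds and priors, no strain block and leaving out a strain. Precision is limited by the number of arrays.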

Additional observations from a re-analysis of the deposited data

Results flagged for a closer look

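Outside the members, 961 features had a mean intensity above 32 without being protein-coding with 1 symbol. Of these, 6 were at least 2-fold higher in the TU3401 array labelled ash-2 and 10 at least 2-fold lower. Of the lower ones, 8 had no gene symbol, and M04D5.4 (57.8 on the array labelled ash-2 and 142 on the control array) and T27E4.15 (77.6 and 185) were noncoding genes. Among the higher ones were 4 noncoding genes: C04E7.7 (85.1 and 25.9, log2 difference 1.72), Y105E8A.36 (128 and 56.9), K03F8.3 (165 and 73.8) and K11H3.11 (166 and 78.8).

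The 1 feature that passed limma for a difference between TU3401 and the other strains was hlh-27, a gene of a basic helix-loop-helix factor (difference -0.37, SE 0.036, adjusted p = 0.0298). Its intensity was 18.8 on the TU3401 array labelled ash-2 and 24.2 on the TU3401 control array, against 18.4 to 19.4 on the other 6 arrays, close to the floor of 18.01 and below the limit for members. On log2 of the intensity minus 16 no feature passed limma's adjusted threshold.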

How the results depend on the processing

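With 1 array per group, the TU3401 values have no replicate check, and intensities near the floor have no order. Against 9 members at least 2-fold higher and 11 lower, log2 of the intensity minus 16 gave 61 and 44, all features above 32 whatever their annotation 15 and 21, and a 1.5-fold threshold 219 and 121; quantile normalization, centring, the other filters and the length step stayed within 1.5 times of both counts. In limma, the 1 feature lower than in the other strains became 0 under the minus 16 scale, without a trend, with members only tested and without strain as a replicate block. Leaving out a strain in turn gave 0 to 32 features higher and 0 to 20 lower, with 16 and 16 without N2, 0 and 0 without VP303 and 32 and 20 without NR350. Over all list genes with no filter on intensity the median was -0.0288 for nlp and -0.0318 for insulin-like genes, and the tRNA synthetase median was 0.20 after the length step. Of 52 list medians, 16 moved by more than the SD of that list's medians over the 4 strains under the length step and 7 with no filter. List medians changed sign in 12 cases under the length step, in 6 under quantile normalization, in 5 with no filter, and in 1 each under centring and the minus 16 scale. Of these the largest beforehand was that of the secreted scl family, -0.78 over 3 members and 0.0047 over all 26. Among named genes, 10 changed sign under quantile normalization and 3 under centring, with a largest size of 0.0642 beforehand. The cause of the moves was not tested.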
